A study of Mus musculus with 7 samples.

Results

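The genes described here carry out or control DNA replication and the entry into S phase. They were taken from a list of 44 named genes, and 42 of them had a probe set annotated to that gene alone among the 12393 genes so represented on the array. Gins2 and Chaf1a were not analysed here. Where a gene had several probe sets, the brightest by its mean across the 7 arrays stood for it. RNA came from MN9D cells, a mouse dopaminergic hybrid of neuroblastoma and embryonic midbrain cells. One group of 4 arrays was labelled as overexpressing both hemoglobin chains, alpha and beta, and the other of 3 arrays as cells with an empty vector. The comparison asks what globin expression does to these cells. Whether either line was a pool or a single clone is not given in the sources used here, and neither is whether replicates were grown apart, so every p below rests on a spread that may be technical.

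Before a cell divides it loads the ring-shaped MCM helicase onto origins of replication in G1, with the help of the origin recognition complex, Cdc6 and Cdt1. At the start of S phase Cdc45 and the GINS proteins join the ring, the DNA is unwound, and polymerase alpha with primase starts each strand before the polymerases delta and epsilon extend it on the sliding clamp PCNA. Deoxynucleotides are made by ribonucleotide reductase, and new histones are laid down behind the fork. Many of these genes are activated by E2F transcription factors in late G1, and their transcripts are common markers of dividing cells in neuroblastoma lines and embryonic brain.

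The alpha-chain part of the label was borne out, since 3 of 5 adult alpha-globin probe sets were higher in the globin-labelled arrays by 35.8-fold to 142-fold, while of 3 adult beta-globin probe sets 1 was higher, by 1.26-fold. The arrays are therefore called globin-labelled wherever a direction is given. Array medians on the log2 scale lay between 8.90 and 8.94. Of 5 general neuron markers, Snap25 and Syp were higher in the globin-labelled arrays (12.45 and 11.56, against 12.04 and 11.39 in empty vector arrays), Stmn2 and Tubb3 were lower (10.18 and 10.62, against 11.38 and 11.42 in empty vector arrays), and Gap43 was not called. Of 5 dopaminergic markers the dopamine synthesis genes Th and Ddc were lower (11.08 and 9.85, against 11.78 and 10.07 in empty vector arrays). The dopamine transporter gene Slc6a3 was dim in both groups, with 6.36 in globin-labelled and 6.33 in empty vector arrays. It was not called, and neither were the other dopaminergic markers Nr4a2 and Pitx3, which differed by -0.13 and 0.06. Of the lists for other cell types, 4 of 5 fibroblast, 2 of 4 macrophage, 2 of 3 astrocyte and 2 of 4 erythroid markers lay below the 25th percentile of the probe sets, and the macrophage gene Cd68 was lower in globin-labelled arrays (6.81 against 8.06 in empty vector arrays). The erythroid gene Slc4a1, at the 15.3th percentile, was higher (6.09 against 5.81 in empty vector arrays). The other erythroid markers Klf1, Epor and Alas2 differed by -0.09, 0.14 and -0.12 and were not called. The summed signal of the 4 macrophage markers on the log2 scale was 8.67 to 8.90 in globin-labelled arrays, against 9.15 to 9.19 in empty vector arrays. Among these markers only Cd68 was called, while Csf1r, Adgre1 and Ptprc differed by 0.10, 0.00 and -0.10. The 3' minus 5' signal of the pyruvate carboxylase control was 0.01 ± 0.06 (SD, n = 4) in globin-labelled arrays against -0.32 ± 0.08 (SD, n = 3) in empty vector arrays, while those of beta-actin and Gapdh differed by 0.02 at most. The part of these differences in the results below was not tested.

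Replication genes were more often higher than lower in the globin-labelled arrays. Differences are given as log2 values, globin-labelled minus empty vector, with limma's standard error after ±, and a gene is called at an adjusted p under 0.05 over all 22626 probe sets. Of the 42 measured genes 25 rose, 5 fell and 12 were not called. Among all 12393 genes 40.7% were called, 20.6% higher and 20.1% lower (39.5%, 18.3% and 21.2% of all probe sets), against 71.4%, 59.5% and 11.9% of the replication genes. The list was chosen with earlier results of these data known. Part of this excess may therefore come from the choice, and no test over the list was made. The median difference was 0.19 over the replication genes and 0.02 over all genes, and the median size was 0.23 against 0.12. Most changes were small, and 4 of the 42 genes differed by 1.5-fold or more: Ung, Rrm2, Hells and Pole. The groups did not overlap for 31 of the 42 genes, where 45.7% of all genes show no overlap. The globin-labelled arrays lay above for 26 (23.1% of all genes) and below for 5 (22.6% of all genes). In whole-culture RNA a larger share of cells in S phase and more RNA of these genes per cell cannot be told apart.

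**Figure D1:**
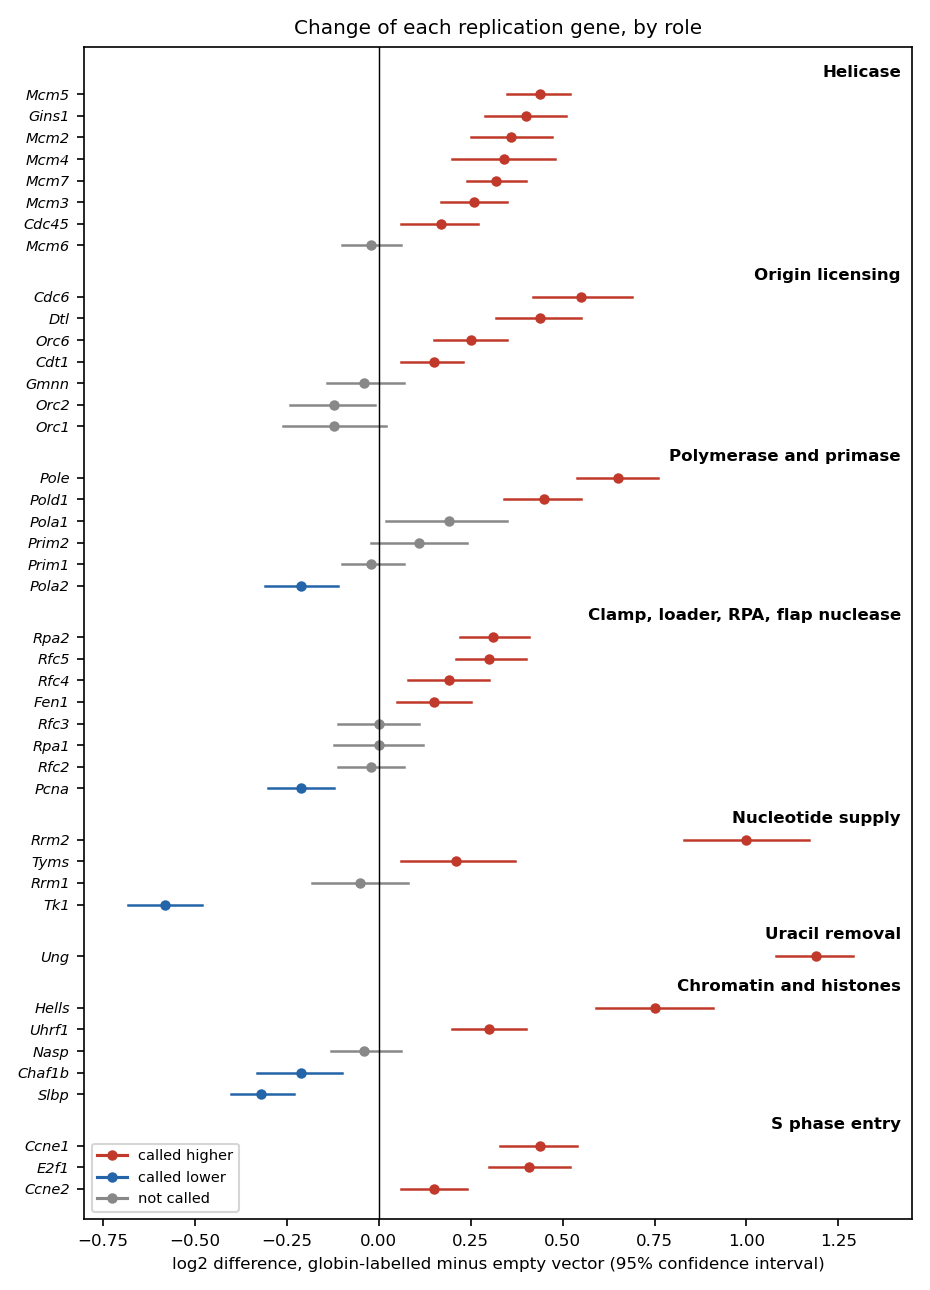
Log2 difference, globin-labelled minus empty vector, of the 42 replication genes with its 95% confidence interval (limma, 4 against 3 arrays), grouped by role and sorted within a role. Red genes were called higher (25), blue lower (5) and grey not called (12); Ung at 1.19 and Rrm2 at 1.0 stand farthest to the right and Tk1 at -0.58 farthest to the left.

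The E2F letter pattern in the promoters did not enter the rule for the list. Since many of these genes are activated by E2F factors, an excess over other genes is not independent of their choice. Windows from 250 bases before to 50 bases after the start site were taken from RefSeq (GRCm38.p6) and searched on both strands for TTTCCCGC and TTTGGCGC, a pair of E2F octamers. A promoter was found for 35 of the 42 genes, and 11 of these (31.4%) held an octamer, against 294 of 9887 genes on the array (2.97%) and 1.56% of all 32851 windows. Among them were 8 of the 21 genes with a promoter that rose, 0 of the 5 that fell and 3 of the 9 that were not called. CCAAT, the pattern bound by NF-Y, stood in 60% of the 35 genes and in 42.3% of the genes on the array (10 of the 21 that rose, 2 of the 5 that fell and 9 of the 9 not called), and the CHR patterns TTTGAA and TTCGAA in 17.1% and 17.3%. A match is a description of letters and not a binding site. The 170 bases before the start site are printed for 4 genes that hold an octamer there, 3 that rose and 1 that was not called, on the gene's own strand, with E2F octamers (8 capitals) and CCAAT in either orientation (5 capitals) marked. Hells lies at chr19:38930820-38930989 on the plus strand, Cdc6 at chr11:98907981-98908150 on the plus strand, Mcm5 at chr8:75109339-75109508 on the plus strand and Mcm6 at chr1:128359706-128359875 on the minus strand.
Hells: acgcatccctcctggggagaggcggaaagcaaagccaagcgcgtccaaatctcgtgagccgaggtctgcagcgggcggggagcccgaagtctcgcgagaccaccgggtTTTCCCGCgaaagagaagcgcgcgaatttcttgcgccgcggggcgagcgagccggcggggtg
Cdc6: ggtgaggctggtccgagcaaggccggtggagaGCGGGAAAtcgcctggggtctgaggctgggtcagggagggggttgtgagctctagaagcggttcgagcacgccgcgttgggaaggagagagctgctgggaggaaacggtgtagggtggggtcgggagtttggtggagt
Mcm5: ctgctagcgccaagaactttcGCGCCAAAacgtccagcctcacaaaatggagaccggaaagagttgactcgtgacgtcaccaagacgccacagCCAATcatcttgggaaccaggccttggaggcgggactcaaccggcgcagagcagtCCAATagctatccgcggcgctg
Mcm6: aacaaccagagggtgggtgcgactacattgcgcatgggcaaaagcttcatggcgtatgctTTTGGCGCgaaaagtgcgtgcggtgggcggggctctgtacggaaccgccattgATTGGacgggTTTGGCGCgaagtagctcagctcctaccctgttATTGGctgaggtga

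The octamer of Hells starts at position -62, that of Cdc6 at -138 and that of Mcm5 at -149, counted with the start site at 0. Mcm6 holds 2 octamers, at -110 and -47, and its signal did not differ between the groups by more than the spread, as described next.

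Helicase genes of the list rose almost throughout. Of 8 measured genes, 7 rose (87.5%, beside 20.6% of all genes) and 0 fell (20.1% of all genes), with a median of 0.33. No helicase gene had a negative difference at an unadjusted p under 0.05 in limma, and the eBayes trend and robust setting also called 0 lower. Mcm5, a subunit of the MCM ring, read 9.84, 9.87, 9.89 and 9.92 on the globin-labelled arrays, against 9.47, 9.44 and 9.42 on the empty vector arrays. Mcm7, another ring subunit, read 13.11, 13.16, 13.14 and 13.14 on the globin-labelled arrays, against 12.82, 12.83 and 12.80 on the empty vector arrays. Gins1, a subunit of the GINS complex that joins the ring at the fork, read 9.46, 9.34, 9.52 and 9.43 on the globin-labelled arrays, against 9.01, 9.05 and 9.06 on the empty vector arrays. The groups of all 3 genes were apart, the globin-labelled arrays being the higher, with differences of 0.44 ± 0.04 (limma adjusted p = 2.60e-05), 0.32 ± 0.04 (1.25e-04) and 0.40 ± 0.05 (1.76e-04). Mcm2 rose by 0.36 ± 0.05, Mcm4 by 0.34 ± 0.06 and Mcm3 by 0.26 ± 0.04. Cdc45, which completes the active helicase with GINS, rose by 0.17 ± 0.05 (limma adjusted p = 0.0196), a call that was lost without empty vector array 2 (0.12, limma adjusted p = 0.0725). Outside the list, Gins4, another subunit of GINS, and Mcm10 differed by 0.05 ± 0.04 and 0.09 ± 0.05. Neither was called (limma adjusted p = 0.334 and 0.229).

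Mcm6 was the ring subunit that was not called. It read 11.85, 11.82, 11.84 and 11.84 on the globin-labelled arrays, against 11.85, 11.88 and 11.85 on the empty vector arrays, so that the groups overlapped. Its difference was -0.02 ± 0.04, with a 95% confidence interval from -0.10 to 0.06, and its other probe set differed by -0.08 ± 0.05. The change of 1 subunit minus that of another was taken for every pair within 5 complexes, 29 pairs in all, as a description chosen after the values were seen. In all 5 pairs that hold Mcm6 this contrast did not overlap between the groups, with sizes from 0.28 against Mcm3 to 0.46 against Mcm5. Of the 10 pairs of the other ring subunits 2 did not overlap, and of all 29 pairs 19 did not. Mcm6 was flat and each other ring subunit was apart on its own, so its contrasts add little to the single-gene values. With 35 splits of the arrays a two-sided exact permutation p cannot go below 0.0286, so that after adjustment over the pairs the design has almost no room to separate subunits and no test is read from it.

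Probe sets of the MCM genes were mostly alike. Both sets of Mcm2, both of Mcm4 and all 4 of Mcm7 rose. Of the 5 sets of Mcm3, 3 rose, with 0.26 ± 0.04, 0.29 ± 0.05 and 0.24 ± 0.05. The others, at 0.15 ± 0.06 and 0.10 ± 0.06, were not called. The brightest set of Mcm3 read 11.65, 11.63, 11.64 and 11.68 on the globin-labelled arrays, against 11.45, 11.36 and 11.36 on the empty vector arrays. By the array maker's naming, the brightest sets of Mcm3 and Mcm7 carry the s suffix, which marks probes shared by several transcripts.

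Origin licensing genes rose in part. Of 7 measured genes 4 rose (57.1%, beside 20.6% of all genes) and 0 fell (20.1% of all genes), with a median of 0.15. Orc2 had a negative difference at an unadjusted p = 0.0317 in limma. Cdc6, which loads the MCM ring, read 9.13, 9.12, 9.11 and 9.15 on the globin-labelled arrays, against 8.73, 8.51 and 8.48 on the empty vector arrays. Dtl, the ubiquitin ligase adaptor that marks Cdt1 for destruction in S phase, read 10.33, 10.32, 10.37 and 10.42 on the globin-labelled arrays, against 10.01, 9.93 and 9.83 on the empty vector arrays. Orc6, a subunit of the origin recognition complex, read 10.52, 10.48, 10.52 and 10.41 on the globin-labelled arrays, against 10.21, 10.23 and 10.28 on the empty vector arrays. None of these 3 genes had overlapping groups, and they rose by 0.55 ± 0.06 (limma adjusted p = 1.08e-04), 0.44 ± 0.05 (1.54e-04) and 0.25 ± 0.04 (0.00182).

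Cdt1, the partner of Cdc6 in loading the helicase, rose by 0.15 ± 0.04 (limma adjusted p = 0.0119) on its brightest probe set. That set read 12.32, 12.37, 12.38 and 12.34 on the globin-labelled arrays, against 12.22, 12.19 and 12.22 on the empty vector arrays, a narrow gap. A second set of Cdt1 was not called (0.11 ± 0.05), and the dimmest, at the 1.68th percentile of the array, differed by -0.01 ± 0.07. Gmnn, which encodes geminin, the protein that holds Cdt1 in check, differed by -0.04 ± 0.05 (confidence interval -0.14 to 0.07). Of the other origin recognition subunits, Orc1 differed by -0.12 ± 0.06 and Orc2 by -0.12 ± 0.05 (limma adjusted p = 0.174 and 0.0731). Orc2 read 10.19, 10.30, 10.26 and 10.31 on the globin-labelled arrays, against 10.44, 10.31 and 10.42 on the empty vector arrays, and these values overlapped. Orc2 was called lower without empty vector array 2 (-0.16, limma adjusted p = 0.0368), while its dimmest set fell by 0.40 ± 0.08 (limma adjusted p = 0.00289) and the remaining one was not called (-0.03 ± 0.05). The second probe set of Dtl was not called either (0.19 ± 0.10).

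Polymerase genes moved both ways. Of 6 measured genes 2 rose (33.3%) and 1 fell (16.7%), beside 20.6% and 20.1% of all genes. With 50% called against 40.7% of all genes, these few genes lay near the array as a whole. Under quantile normalisation 3 of them were called higher and 1 lower. Pole, the catalytic subunit of polymerase epsilon, which copies the leading strand, read 9.24, 9.26, 9.34 and 9.39 on the globin-labelled arrays, against 8.69, 8.66 and 8.62 on the empty vector arrays. Pold1, the catalytic subunit of polymerase delta, which copies the lagging strand, read 9.97, 9.87, 9.87 and 9.88 on the globin-labelled arrays, against 9.44, 9.52 and 9.40 on the empty vector arrays. Both stood clear of the empty vector arrays, with rises of 0.65 ± 0.05 (1.57-fold, limma adjusted p = 9.83e-06) and 0.45 ± 0.05 (limma adjusted p = 7.13e-05), and the other probe set of Pold1 rose by 0.39 ± 0.05. Pola2, the regulatory subunit of polymerase alpha, read 10.02, 10.02, 9.96 and 9.95 on the globin-labelled arrays, against 10.27, 10.17 and 10.16 on the empty vector arrays. It fell by 0.21 ± 0.04 (limma adjusted p = 0.00477), and all globin-labelled arrays lay below the others, whereas its dimmer probe set differed by -0.01 ± 0.04. The catalytic subunit gene Pola1 differed by 0.19 ± 0.07 (limma adjusted p = 0.0674) and passed once empty vector array 1 was left out (0.24, limma adjusted p = 0.0496). Primase genes Prim1 and Prim2 differed by -0.02 ± 0.04 and 0.11 ± 0.06 and were not called.

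**Figure D2:**
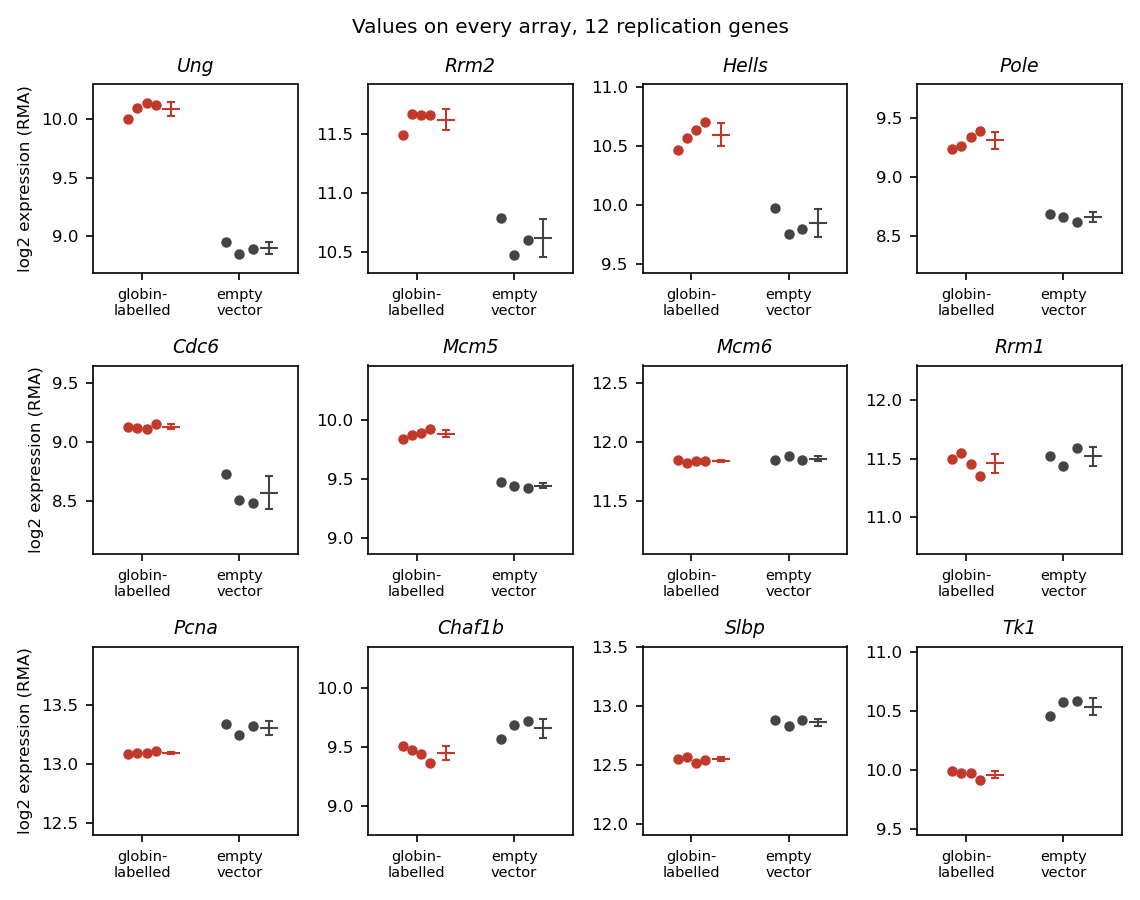
Log2 RMA values on every array for 12 replication genes, globin-labelled (red, 4 arrays) left of empty vector (dark grey, 3 arrays), with the mean and SD of each group beside its points; every panel spans the same number of log2 units. The groups are apart for Ung, Rrm2, Hells, Pole, Cdc6 and Mcm5 (higher) and for Pcna, Chaf1b, Slbp and Tk1 (lower), and they overlap for Mcm6 and Rrm1.

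Genes of the sliding clamp, its loader, the single-strand binding protein and the flap nuclease moved both ways. Of 8 measured genes 4 rose (50%) and 1 fell (12.5%), beside 20.6% and 20.1% of all genes, with a median of 0.07. The one that fell was Pcna, the clamp itself, with 13.08, 13.09, 13.09 and 13.11 on the globin-labelled arrays, against 13.34, 13.24 and 13.32 on the empty vector arrays. Its difference was -0.21 ± 0.04 (limma adjusted p = 0.00291), and the globin-labelled arrays all lay below the others. Pcna has 1 probe set, at the 97th percentile of the array.

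The clamp loader, a complex that opens PCNA and closes it around DNA, was uneven. Rfc5 read 10.86, 10.88, 10.88 and 10.86 on the globin-labelled arrays, against 10.63, 10.53 and 10.54 on the empty vector arrays, and rose by 0.30 ± 0.04 (limma adjusted p = 3.25e-04). Rfc4 rose by 0.19 ± 0.05 (limma adjusted p = 0.0124), a call lost without empty vector array 2 (0.16, limma adjusted p = 0.0508), while its other probe set rose by 0.28 ± 0.06. Rfc2 and Rfc3 differed by -0.02 ± 0.04 and -0.00 ± 0.05, with confidence intervals from -0.11 to 0.07 and from -0.11 to 0.11. Of the 6 pairs within the loader 5 did not overlap in the contrast of their changes, as did not 19 of all 29 pairs. No test is read from these contrasts.

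Rpa2, the middle subunit of the protein that coats single-stranded DNA, read 10.49, 10.46, 10.53 and 10.56 on the globin-labelled arrays, against 10.25, 10.17 and 10.17 on the empty vector arrays. It rose by 0.31 ± 0.04 (limma adjusted p = 3.87e-04), and its second probe set rose by 0.20 ± 0.06. The large subunit gene Rpa1 differed by -0.00 ± 0.05 (confidence interval -0.12 to 0.12). Fen1, which trims the flaps between lagging-strand fragments, rose by 0.15 ± 0.04 (limma adjusted p = 0.0270) on its brightest probe set and by 0.32 ± 0.04 on the other. The first of these calls was lost without globin-labelled array 2, 3 or 4 and without empty vector array 2 or 3 (limma adjusted p from 0.0536 to 0.0984).

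Nucleotide supply genes held the widest spread. Of 4 measured genes 2 rose (50%) and 1 fell (25%), beside 20.6% and 20.1% of all genes. Rrm2, the small subunit of ribonucleotide reductase, read 11.49, 11.67, 11.66 and 11.66 on the globin-labelled arrays, against 10.79, 10.47 and 10.60 on the empty vector arrays. It rose 2.00-fold, or by 1.0 ± 0.08 (limma adjusted p = 1.25e-05), with no overlap. Its brightest probe set carries the x suffix, which marks probes that may bind unrelated transcripts, and its other 2 sets rose by 0.92 ± 0.06 and 0.83 ± 0.07. Rrm1, the large subunit of the same enzyme, read 11.50, 11.55, 11.45 and 11.35 on the globin-labelled arrays, against 11.52, 11.44 and 11.59 on the empty vector arrays. These groups overlapped, and the difference was -0.05 ± 0.06 with a confidence interval from -0.18 to 0.08. The change of Rrm1 minus that of Rrm2 was -1.05 and did not overlap between the groups, as was so for 19 of all 29 pairs.

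Thymidylate is either salvaged from thymidine or made anew, and genes of both routes were measured. Tk1, the kinase that salvages thymidine, read 9.99, 9.98, 9.98 and 9.92 on the globin-labelled arrays, against 10.46, 10.58 and 10.59 on the empty vector arrays. It fell by 0.58 ± 0.04 (1.49-fold, limma adjusted p = 1.31e-05), with every globin-labelled array below the others. Tyms, which makes thymidylate from deoxyuridylate, read 7.92, 7.74, 8.06 and 7.84 on the globin-labelled arrays, against 7.63, 7.72 and 7.67 on the empty vector arrays. The gap between its groups was narrow, and the rise of 0.21 ± 0.07 (limma adjusted p = 0.0366) was lost when any of globin-labelled arrays 1, 3 and 4 or of the empty vector arrays was left out (limma adjusted p from 0.0512 to 0.111). It was also lost under quantile normalisation (0.18, limma adjusted p = 0.0961). The other 2 sets of Tyms, near the 10th percentile of the array, differed by -0.06 ± 0.08 and 0.01 ± 0.05.

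Ung, the glycosylase that removes uracil from newly made DNA, showed the largest difference among the 42 genes. It read 10, 10.09, 10.13 and 10.12 on the globin-labelled arrays, against 8.95, 8.85 and 8.89 on the empty vector arrays. The groups lay far apart relative to their spread, with SDs of 0.06 and 0.05. The rise was 2.28-fold, or 1.19 ± 0.05 on the log2 scale (limma adjusted p = 2.03e-07), on its 1 probe set.

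Genes of chromatin copying and histone supply moved in opposite directions. Of 5 measured genes 2 rose (40%) and 2 fell (40%), beside 20.6% and 20.1% of all genes, with a median of -0.04. Hells, a chromatin remodeller needed for DNA methylation, read 10.47, 10.57, 10.64 and 10.71 on the globin-labelled arrays, against 9.98, 9.76 and 9.80 on the empty vector arrays. Uhrf1, which brings the maintenance DNA methyltransferase to newly copied DNA, read 10.51, 10.53, 10.61 and 10.64 on the globin-labelled arrays, against 10.28, 10.28 and 10.26 on the empty vector arrays. Both were higher without overlap, with rises of 0.75 ± 0.07 (1.69-fold, limma adjusted p = 4.20e-05) and 0.30 ± 0.04 (limma adjusted p = 5.87e-04), although the second probe set of Uhrf1 was not called (0.08 ± 0.06).

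Slbp, which binds the stem-loop of histone messages and is needed for their use, read 12.55, 12.57, 12.52 and 12.54 on the globin-labelled arrays, against 12.88, 12.83 and 12.88 on the empty vector arrays. Chaf1b, a subunit of the assembly factor that places histones on new DNA, read 9.51, 9.48, 9.44 and 9.37 on the globin-labelled arrays, against 9.57, 9.69 and 9.72 on the empty vector arrays. Both were lower without overlap, and they fell by 0.32 ± 0.04 (limma adjusted p = 1.61e-04) and by 0.21 ± 0.05 (limma adjusted p = 0.00977). A second set of Slbp at the 5.99th percentile of the array differed by -0.05 ± 0.04. The histone chaperone gene Nasp differed by -0.04 ± 0.04.

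The 3 regulators of S phase entry among the members, Ccne1, E2f1 and Ccne2, rose, where 20.6% of all genes were higher. Other E2F and kinase genes described further on moved both ways. Ccne1, a cyclin that activates Cdk2 late in G1, read 9.16, 9.22, 9.08 and 9.08 on the globin-labelled arrays, against 8.69, 8.68 and 8.73 on the empty vector arrays. E2f1, an activating E2F factor, read 10.11, 10.06, 10.05 and 10.12 on the globin-labelled arrays, against 9.58, 9.73 and 9.72 on the empty vector arrays. Ccne2, the second cyclin E, read 10.15, 10.17, 10.21 and 10.14 on the globin-labelled arrays, against 10.07, 9.97 and 10.01 on the empty vector arrays. None of the 3 overlapped, with rises of 0.44 ± 0.05 (limma adjusted p = 8.09e-05), 0.41 ± 0.05 (1.65e-04) and 0.15 ± 0.04 (0.0179). The second probe set of E2f1 rose by 0.52 ± 0.05. The call of Ccne2 was lost without globin-labelled array 3 or empty vector array 2 (limma adjusted p = 0.0504 and 0.0672).

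Of the 42 genes, 24 had over 1 probe set. All sets of a gene were called in the same direction for 9 of them, none was called for 7, and a part was called for 8, while 0 genes had calls in both directions. The 8 genes with a part called were Mcm3, Orc2, Cdt1, Dtl, Pola2, Tyms, Slbp and Uhrf1.

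**Figure D3:**
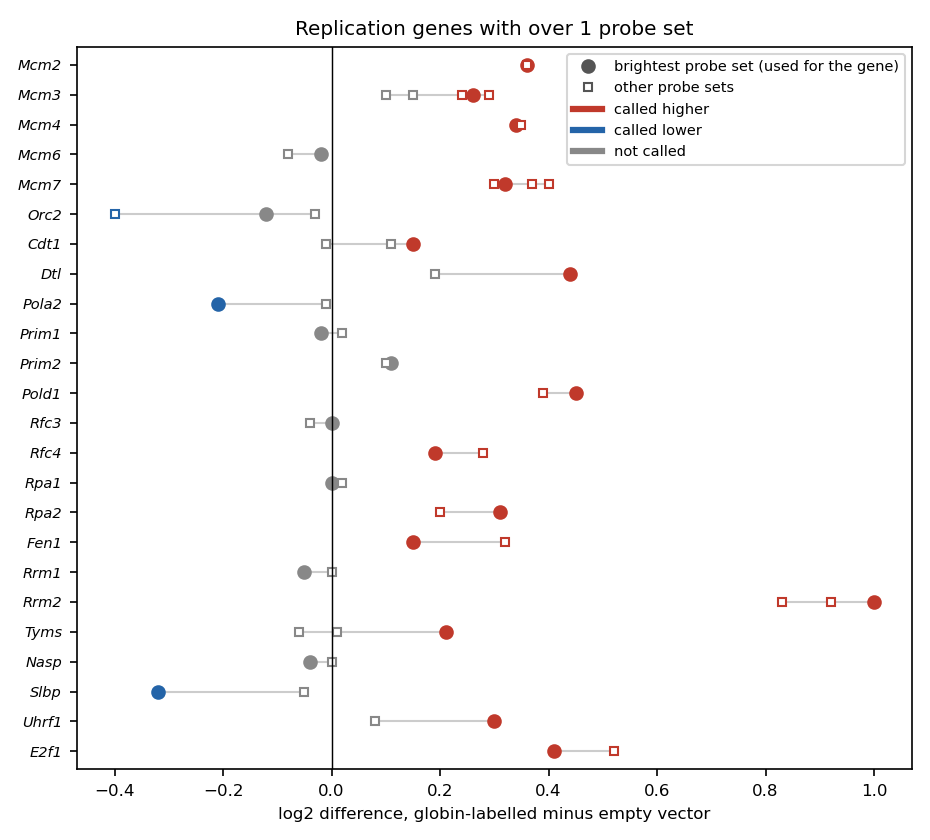
Log2 difference, globin-labelled minus empty vector, of every probe set of the 24 replication genes with over 1; filled circles are the brightest set, which stands for the gene, open squares the others, and colour gives the call. All 3 sets of Rrm2 lie between 0.83 and 1.0, whereas those of Orc2 lie between -0.40 and -0.03 and those of Slbp between -0.32 and -0.05.

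The arrays of a group gave nearly the same picture across the list. Averaged over the 42 genes and set against the empty vector mean, globin-labelled arrays 1 to 4 stood at 0.19, 0.20, 0.22 and 0.20, and the empty vector arrays at 0.03, -0.02 and -0.01. For the 8 helicase genes the globin-labelled arrays stood at 0.29, 0.28, 0.28 and 0.28, against 0.02, -0.02 and -0.00 for the empty vector arrays. Over all 12393 genes the globin-labelled arrays stood at 0.01 to 0.02.

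Other genes of the pathway, listed by function, moved less to one side. Of 77 measured, 26 rose and 16 fell, which is 33.8% and 20.8% against 20.6% and 20.1% of all genes, with a median of 0.03. Other genes of the fork resembled the members, with 10 of 19 higher and 2 lower and a median of 0.14. Pold2, the second subunit of polymerase delta, rose by 0.78 ± 0.05 (1.71-fold, limma adjusted p = 3.33e-06). Tipin, which stabilises the fork with Timeless, rose by 0.31 ± 0.04 (limma adjusted p = 3.11e-04). Pole4, a small subunit of polymerase epsilon, fell by 0.38 ± 0.06 (limma adjusted p = 6.41e-04). Among 9 other origin genes 3 rose (33.3%) and 1 fell (11.1%), with 44.4% called against 40.7% of all genes. Recql4, a helicase that takes part in starting replication, rose 2.10-fold, by 1.07 ± 0.08 (limma adjusted p = 1.25e-05), and Orc4 rose by 0.33 ± 0.04 on 1 of 3 probe sets. Mcm9 fell by 0.38 ± 0.08 near the bottom of the array's range (10.9th percentile).

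Among 21 other nucleotide genes 5 rose and 3 fell, with a median of 0.01. These are 23.8% and 14.3%, near the 20.6% and 20.1% of all genes. Samhd1, which breaks down deoxynucleotides, fell by 0.48 ± 0.04 (limma adjusted p = 3.84e-05) on 1 of 4 probe sets. Shmt2, which supplies one-carbon units, rose by 0.36 ± 0.04, and Rrm2b, an alternative small subunit of ribonucleotide reductase, rose by 0.29 ± 0.04. Of 10 other histone and chromatin genes 4 rose (40%) and 2 fell (20%), beside 20.6% and 20.1% of all genes. The histone variants H2ax and H2az1 rose by 0.56 ± 0.04 and 0.54 ± 0.04, and Cbx5, a heterochromatin protein, rose by 0.71 ± 0.06 on 1 of 5 probe sets.

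Of 18 genes on the list of E2F, RB and S phase kinase genes, 4 rose and 8 fell, with a median of -0.03, beside 20.6% and 20.1% of all genes. These counts depended on the processing: they were 5 and 6 under quantile normalisation, 4 and 6 with median-centred arrays, and 2 and 2 at an adjusted p under 0.01. Leaving out 1 array gave 2 to 4 higher and 4 to 7 lower, with 3 and 4 without empty vector array 1 and 2 and 4 without empty vector array 2. Cdkn1a, the inhibitor p21, fell by 0.37 ± 0.05, and Cdkn1b, the inhibitor p27, fell by 0.16 ± 0.06 (limma adjusted p = 4.26e-04 and 0.0485). The second, dimmer probe set of Cdkn1b was called lower as well, by 1.14 ± 0.20 (limma adjusted p = 0.00147), with an SD of 0.44 in the globin-labelled arrays. Skp2, the ligase subunit that marks p27 for destruction, rose by 0.34 ± 0.05, and its cofactor gene Cks1b by 0.22 ± 0.05. Ccna2, the S phase cyclin A, rose by 0.16 ± 0.05 and the retinoblastoma gene Rb1 by 0.20 ± 0.07. The second probe set of Ccna2 was not called (0.13 ± 0.05, limma adjusted p = 0.0671). The E2F genes E2f3, E2f4 and E2f6 fell by 0.21 ± 0.05, by 0.22 ± 0.05 and by 0.17 ± 0.04. Rbl1, a relative of Rb1, fell by 0.19 ± 0.05, Mybl2 fell by 0.17 ± 0.05 and the phosphatase gene Cdc25a fell by 0.13 ± 0.04, each on 1 of 2 probe sets. Their second sets differed by -0.16, -0.09 and -0.00 (limma adjusted p = 0.0512, 0.387 and 0.962). The calls of Cdkn1b, Cdc25a, Mybl2 and Rb1 were each lost when single arrays of either group were left out (limma adjusted p from 0.0522 to 0.169), as were that of Rbl1 without empty vector array 1 (0.0571) or 2 and that of Ccna2 without empty vector array 2 (0.0623). Those of Cdkn1b and Cdc25a were also lost under both other scalings, median centring (0.0662 and 0.0587) and quantile normalisation (0.103 and 0.104).

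**Figure D4:**
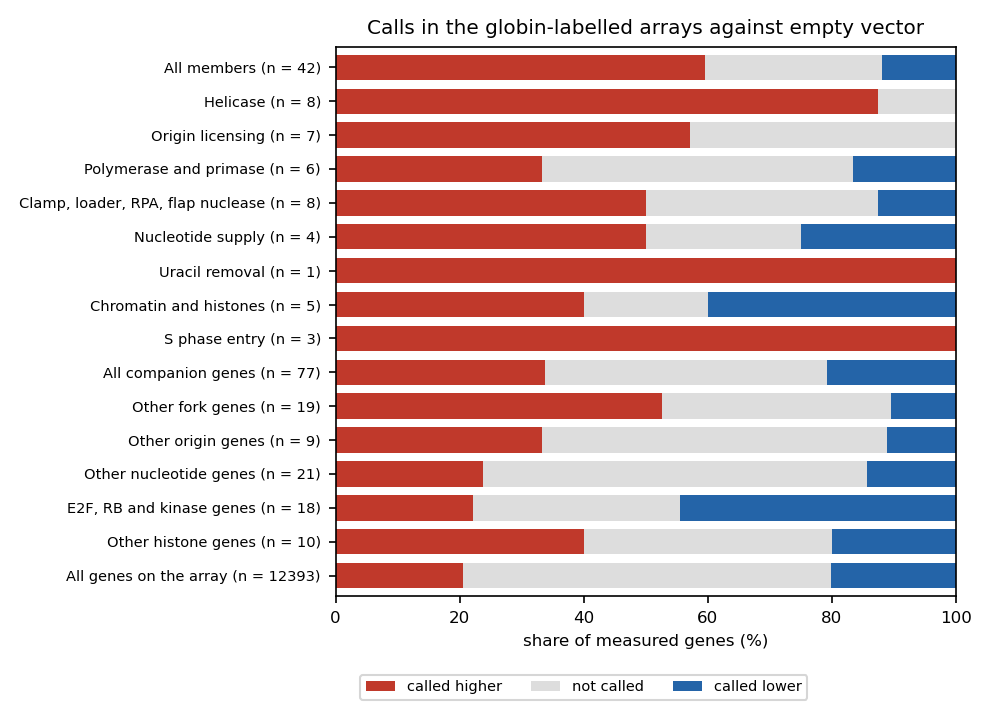
Share of measured genes called higher (red), not called (grey) and called lower (blue) in the globin-labelled arrays against empty vector, for the replication genes by role, for the other genes of the pathway by list, and for all 12393 genes. Red covers 59.5% of the 42 replication genes and 20.6% of all genes.

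The chromosomal neighbours of the replication genes were described next. For 41 of the 42 genes the median difference of the 10 measured genes on either side was taken, in the gene order of GRCm38.p6. Over 11967 genes the 5th and 95th percentiles of this median were -0.13 and 0.15, and 4 replication genes lay at or below the first and 1 at or above the second, a number near that which these percentiles leave outside by construction. The median of the neighbour medians was 0.02 for the replication genes and for all genes. Of the 20 neighbours of Tk1, 12 were lower and 3 higher, with a median of -0.31. The genes directly beside it, Syngr2 and Afmid, fell by 1.03 ± 0.06 and by 0.32 ± 0.09, and Birc5, beyond Afmid, fell by 1.28 ± 0.04. Around Nasp 13 of 20 neighbours were lower (median -0.34), around Orc1 14 (median -0.26) and around Ccne2 10 (median -0.14). Slbp lay at the edge of the range, with 10 of 20 neighbours lower (median -0.13). Around Fen1 14 of 20 were higher and 0 lower in limma (median 0.28), among them Fads2 at 0.42 ± 0.05 and Fads3 at 0.65 ± 0.05. Nasp and Orc1 themselves were not called, and Ccne2 rose. The neighbours of Ung, Rrm2, Hells and Pole had medians of 0.06, 0.03, 0.12 and 0.03. The part of the neighbourhood in any gene's value was not tested.

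**Figure D5:**
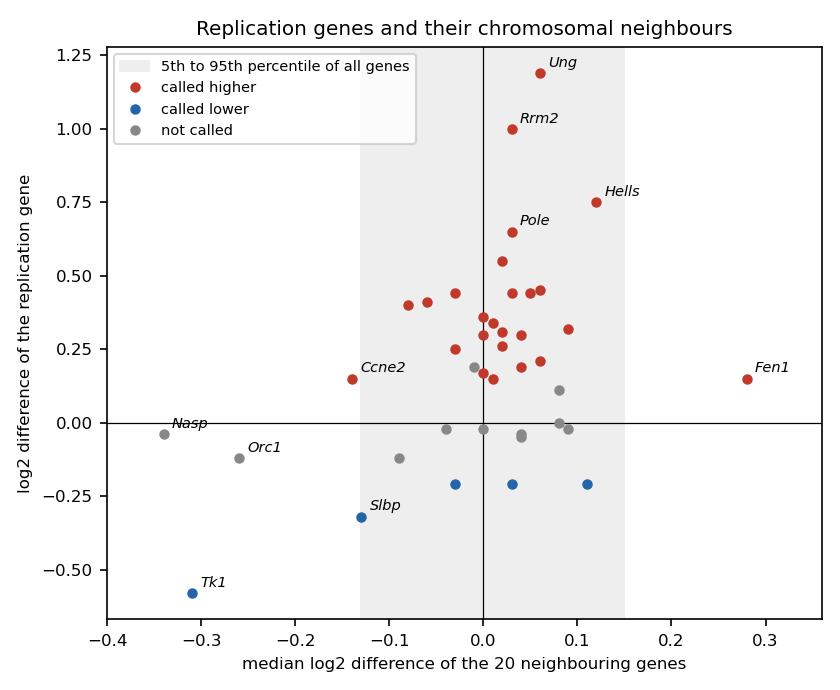
Log2 difference of 41 replication genes (vertical axis) against the median log2 difference of the 20 measured genes nearest to each on its chromosome (horizontal axis), coloured by call; the grey band spans the 5th to 95th percentile of that median over all genes, -0.13 to 0.15. Tk1, Nasp, Orc1 and Ccne2 lie left of the band and Fen1 right of it, while Ung, Rrm2, Hells and Pole lie inside it.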

How the data were processed

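RNA was measured on 7 Affymetrix Mouse Genome 430A arrays, 4 globin-labelled and 3 empty vector, grouped by the sample labels. The values are log2 signals made by the authors; the submitters' processing notes name RMA, and values were not normalised again. The 64 control probe sets among 22690 were left out. Among the 22626 tested, 20380 had 1 gene symbol, 691 several and 1555 none in the annotation used, and genes were named only from the first. Groups were compared with limma 3.58.1 in R 4.3.3 (lmFit and eBayes, Benjamini-Hochberg over 22626 probe sets, 9.10 total degrees of freedom). Tested on simulated data for this comparison, the fit recovered 48% of 50 changed probe sets at 1.2-fold and 90% at 1.5-fold. It recovered 98% at 2-fold and 100% at 4-fold, with 5 false calls. The simulation changed few probe sets and gave each independent noise, whereas 39.5% of probe sets were called in the real data. Its rates therefore need not hold for these arrays. The genes and lists were chosen with earlier results of these data known. All measured members are named, and of the 77 measured companion genes (96 listed) the 3 called genes with the smallest p in each list and every called gene of the E2F, RB and S phase kinase list. Gins4 and Mcm10, which were not called, are named beside the helicase genes. Alternatives were other scalings, variance settings, filters, thresholds, probe set rules, arrays left out and a replicate block. The number of arrays limits precision.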

Additional observations from a re-analysis of the deposited data

Results flagged for a closer look

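In 6 of 66 genes 1 globin-labelled array stood apart from the other 3, and chance flags about 1 in 20 groups. Array 1 was the one apart for Pold1 at 9.97 (others 9.87 to 9.88), Rpa1 at 12.07 (others 12.21 to 12.23), Rrm2 at 11.49 (others 11.66 to 11.67) and the companion Cdkn1b at 11.63 (others 11.81 to 11.84). Array 4 was apart for Orc1 at 6.72 (others 6.93 to 6.95) and Tk1 at 9.92 (others 9.98 to 9.99). Pold1, Rrm2 and Tk1 remained called without any 1 array, whereas the call of Cdkn1b was lost without array 1 (-0.11, limma adjusted p = 0.0623).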

How the results depend on the processing

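Of the 30 called replication genes 25 stayed called without any 1 array and 29 under both other scalings. Leaving out 1 array gave 20 to 25 genes higher and 5 to 6 lower, and 23 to 25 companion genes higher and 11 to 16 lower. The 16 companion genes called lower became 9 with a replicate block, 8 at an adjusted p under 0.01, and 9 when both globin-labelled array 4 and empty vector array 1 were dropped, an alternative chosen after seeing the data. The cause was not tested. Replicate numbers did not pair the arrays: same-numbered arrays deviated with correlations of -0.36, -0.30 and -0.14, and 0 of 3 correlated best with their own number. The replicate block left 20 replication genes higher and 4 lower, and 2 higher and 2 lower of the E2F, RB and S phase kinase list, against 4 and 8 without it. Under the dimmest probe set of each gene, Cdt1 turned to -0.01, Rnaseh2c to -0.00, Dbf4 to -0.11 and Dut to -0.22, by construction another probe set, and 20 replication genes were higher and 4 lower. The mean of all probe sets gave 23 higher and 6 lower. Signal over background was not assessed, since the RMA values used carry no detection calls.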

Other observations

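Some neighbours of replication genes differed more than those genes did. Tha1, close to Tk1, fell by 1.88 ± 0.06, and Socs3 on the same side was higher by 0.62 ± 0.08 (limma, globin-labelled minus empty vector). The second, dimmer probe set of Cdkn1b, the inhibitor p27, fell by 1.14 ± 0.20, against a fall by 0.16 ± 0.06 on its brightest. That dimmer set read 8.59, 8.40, 8.20 and 7.58 on the globin-labelled arrays, against 9.41, 9.26 and 9.31 on the empty vector arrays.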
